A study of Mus musculus with 6 samples.

Results

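The BCL2 family decides whether a stressed cell opens the outer membrane of its mitochondria and dies by apoptosis. Anti-apoptotic members hold the pore-forming effectors in check, and BH3-only members, which share only the short BH3 helix with the rest of the family, are switched on by damage or growth factor loss and either block the anti-apoptotic members or activate the effectors. The 10 genes described here were chosen by name, with earlier results of these data known. All 10 were found among the 18238 genes of the count and FPKM tables. They are 3 anti-apoptotic genes (Bcl2, Bcl2l1 and Mcl1), 2 effector genes (Bax and Bak1) and 5 BH3-only genes (Bid, Bcl2l11, Bbc3, Pmaip1 and Bmf). All 10 passed the filter on low counts that left 15242 genes for testing.

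RNA-seq libraries came from 3 mice with lung cancer given artemisinin, a sesquiterpene lactone used against malaria (artemisinin replicates 1 to 3), and from 3 mice of the lung cancer model (model replicates 1 to 3), so both groups carry the disease and no healthy mouse was included. For the strain, the age, the way the cancer was induced, the tissue taken, the dose and the length of treatment, the sources used here give nothing. The libraries held between 25566173 and 34745497 counts. Nothing in the sources says more of the replicates than their numbers and that they are mice, so p-values measure the spread between these libraries.

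Markers of lung epithelium were detected in every library, and several cell type markers moved with the groups. The summed normalised CPM of 11 alveolar type 2 markers ranged from 10774 to 27699 with artemisinin, against 60918 to 87541 in the model. All 11 had negative log2 fold changes, and 6 were called lower (edgeR adjusted p under 0.05), against 2.3% of all genes tested. The sum of 10 neutrophil markers ranged from 901.3 to 4947 with artemisinin, against 171.5 to 236.1 in the model. All 10 had positive log2 fold changes, and 6 were called higher, against 2.17% of all genes tested. All 6 smooth muscle markers were called higher, against the same 2.17%. Artemisinin replicate 2 stood apart, with a sum of 6207 for 7 skeletal muscle markers against 5.42 to 59.6 in the other 5 libraries. Artemisinin replicate 1 stood apart in club cell markers, whose sum was 78950 there and 9810 to 32598 in the others, and in adipocyte markers, with 369.4 there and 30.9 to 70.8 in the others. Artemisinin replicate 3 stood apart in neutrophil markers, with 4947 there, against 901.3 and 1187 in artemisinin replicates 1 and 2. Spread was wider with artemisinin, where the biological coefficient of variation was 0.39, than in the model, where it was 0.211. In such bulk tissue, fewer cells of a type and less RNA per cell cannot be told apart, and the part of these markers in the results below was not tested.

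Among the family, Bcl2 rose with artemisinin and Bmf fell, and the other 8 members did not pass the threshold in the main test. These 2 of 10 stood against 4.47% of all genes tested (edgeR's quasi-likelihood test, Benjamini-Hochberg adjusted over 15242 genes, threshold 0.05), with 2.17% called higher and 2.3% called lower. Without adjustment 3 members lay higher and 2 lower at p under 0.05. Of all 15242 genes, 2088 lay higher and 1670 lower, 24.7% in either direction. DESeq2, which called 15.1% of all genes, called 4 of the 10, adding Bid higher and Bcl2l1 lower. For 6 of the 10 members the artemisinin values lay wholly to 1 side of the model values, which held for 33.6% of all genes. Bcl2, Mcl1, Bax and Bid lay above, against 16.3% of all genes, and Bcl2l1 and Bmf lay below, against 17.3%. The median log2 fold change of the members was 0.18, against 0.04 for all genes. Members that restrain apoptosis and members that promote it were found on both sides of 0.

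**Figure D1:**
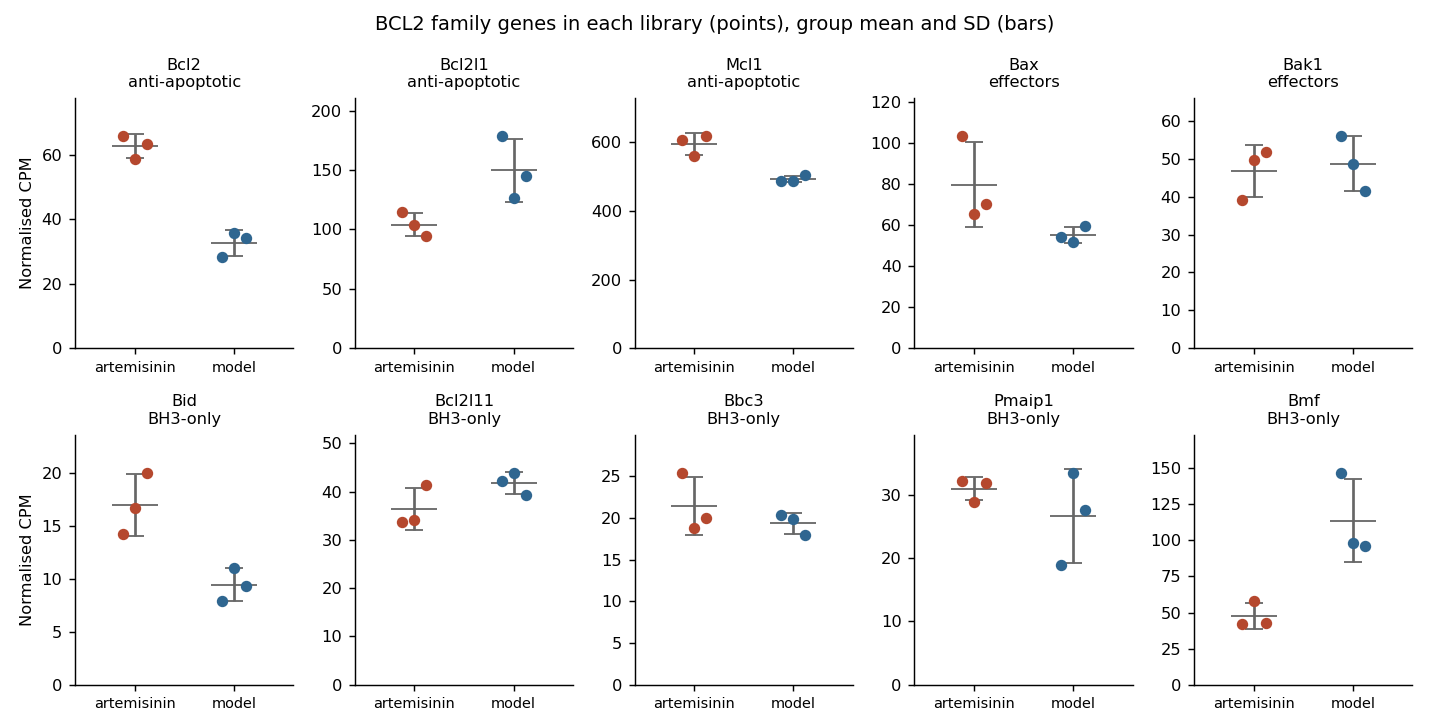
Normalised CPM (counts over TMM-scaled library totals, vertical axis from 0) of each BCL2 family gene in 3 artemisinin and 3 model libraries. Points are libraries, and bars are the group mean and SD. The groups lie apart for Bcl2, Bcl2l1, Mcl1, Bax, Bid and Bmf and overlap for Bak1, Bcl2l11, Bbc3 and Pmaip1.

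The anti-apoptotic genes did not move in 1 direction. Bcl2 (chromosome 1, 106538176 to 106714290, GRCm38, protein coding) encodes the founding member of the family, which keeps effectors and BH3-only proteins bound at mitochondria and endoplasmic reticulum. It stood at 65.8, 58.7 and 63.5 normalised CPM in artemisinin replicates 1, 2 and 3, against 28.2, 35.7 and 34.1 in model replicates 1, 2 and 3. The lowest artemisinin library was well above the highest model library, and each group was tight. Bcl2 averaged 62.7 ± 3.66 normalised CPM with artemisinin and 32.7 ± 3.95 in the model (SD, n = 3 each), a rise of 1.92-fold (log2 0.94 ± 0.14, SE; edgeR adjusted p = 0.0213). Its log2 fold change stayed between 0.84 and 0.98 with any 1 library left out. The call was lost without model replicate 1, 2 or 3 (edgeR adjusted p = 0.101, 0.0708 and 0.0946). Bcl2 kept its call without artemisinin replicate 1 (log2 0.90; edgeR adjusted p = 0.0442) and without artemisinin replicate 2 (log2 0.98; edgeR adjusted p = 0.0194). It was also kept without artemisinin replicate 3 (log2 0.89; edgeR adjusted p = 0.0471). Over all genes 17, 118 and 23 were called without model replicate 1, 2 and 3. Without artemisinin replicate 1, 2 and 3 these calls were 309, 1383 and 494. Each of these fits has fewer mice than the main test, and the cause of the lost calls was not tested. Exons of Bcl2 share 558 bases with an antisense RNA gene, D630008O14Rik, in the GENCODE M21 annotation, and no source used here says whether counting used the strand.

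T cells and B cells depend on BCL2 for survival, so their markers are given beside this rise. The 7 T cell markers found summed to 152.7, 91.1 and 229.7 normalised CPM in artemisinin replicates 1, 2 and 3, against 92.5, 120.2 and 106.7 in model replicates 1, 2 and 3. The 6 B cell markers found summed to 334.4, 189.1 and 292.2 with artemisinin, against 121.8, 245.5 and 191.9 in the model. The groups overlapped for both sums. All 7 T cell markers and all 6 B cell markers had positive log2 fold changes, as Bcl2 did. Their medians were 0.60 and 0.61, against 0.04 for all genes. None of these markers passed the test, and none was at 0 in any library. The positive sign was not particular to lymphocytes. All tested markers of club, ciliated, neutrophil, fibroblast, smooth muscle, skeletal muscle, keratinocyte, erythroid and adipocyte cells were positive too. Other cell types were mixed, and all 11 alveolar type 2 markers were negative. The part of any of these markers in the rise of Bcl2 was not tested.

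Bcl2l1, which encodes BCL-XL, an anti-apoptotic protein abundant in epithelium and platelets, lay the other way. It stood at 114.4, 103.7 and 94.3 normalised CPM with artemisinin, against 178.6, 126.2 and 144.7 in the model. The groups did not overlap, but the model values were spread, with replicate 1 the highest. The difference, log2 −0.53 ± 0.17 (SE), missed the threshold in edgeR (adjusted p = 0.124), with a 95% interval of −0.93 to −0.13.

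Mcl1, which encodes a short-lived anti-apoptotic protein on which neutrophils and other myeloid cells depend, had the most counts of the members in every library. It stood at 606.5, 559.4 and 618.1 normalised CPM with artemisinin, against 486.4, 488 and 504.4 in the model. The groups were close and did not overlap. The difference was small and not called (log2 0.27 ± 0.15, SE; edgeR adjusted p = 0.31; 95% interval −0.09 to 0.63).

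Both effector genes were expressed in every library, and neither was called. Bax, whose protein moves from the cytosol into the mitochondrial membrane to form pores, stood at 103.5, 65.4 and 70.2 normalised CPM with artemisinin, against 54.2, 51.9 and 59.4 in the model. Artemisinin replicate 1 was far above the other libraries, and the remaining artemisinin values were only just above the model. The Bax difference was log2 0.53 ± 0.19 (SE; edgeR adjusted p = 0.157), and 0.30 without artemisinin replicate 1. That library also had the highest sums of club cell, adipocyte and platelet markers, the last at 308.3 normalised CPM against 39 to 92.4 in the other libraries, and their part in the Bax difference was not tested. Bak1, whose protein sits in the mitochondrial membrane from the start, stood at 39.1, 49.7 and 51.9 with artemisinin, against 56, 48.7 and 41.6 in the model. These values were interleaved, and the 95% interval of the log2 fold change ran from −0.46 to 0.35. Exons of Bak1 share 614 bases with Ggnbp1 on the opposite strand, and those of Bax share 192 bases with the predicted gene Gm45808 on the same strand.

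The ratio of Bax to Bcl2 is often quoted as a rheostat of apoptosis. On the FPKM scale it was 12.4, 8.83 and 8.75 in artemisinin replicates 1, 2 and 3, against 15.2, 11.5 and 13.8 in model replicates 1, 2 and 3. The groups overlapped, because artemisinin replicate 1 lay above model replicate 2. The log2 ratio averaged 3.30 ± 0.29 with artemisinin and 3.75 ± 0.20 in the model (SD, n = 3 each), a difference of −0.44, since Bcl2 differed between the groups by more than Bax did. No test was made of this ratio. Without artemisinin replicate 1 the difference was −0.61, and without model replicate 2 it was also larger in size than with all libraries. It was smaller in size without artemisinin replicate 2 or 3 and without model replicate 1 or 3.

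The BH3-only genes held the largest fall and one of the larger positive differences of the family. Bmf (chromosome 2, 118528757 to 118549686, GRCm38, protein coding) encodes a BH3-only protein known to bind the dynein light chain of the cytoskeleton and to act when epithelial cells lose their attachment. It stood at 42.2, 58.3 and 42.8 normalised CPM with artemisinin, against 146.8, 97.9 and 96.3 in the model. Every artemisinin library was below every model library by a wide margin. Bmf averaged 47.8 ± 9.10 normalised CPM with artemisinin and 113.6 ± 28.7 in the model (SD, n = 3 each), a fall of 2.38-fold (log2 −1.25 ± 0.22, SE; edgeR adjusted p = 0.0291). With 1 library left out the log2 fold change lay between −1.42 and −1.03, and without artemisinin replicate 2 it was −1.42 (edgeR adjusted p = 0.0199). The call was lost without artemisinin replicate 1 or 3 (edgeR adjusted p = 0.0742 and 0.0586) and without model replicate 1, 2 or 3 (0.111, 0.0618 and 0.0919).

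The alveolar type 2 markers fell with the same groups as Bmf. Their sum was 17997, 27699 and 10774 normalised CPM in artemisinin replicates 1, 2 and 3, against 87541, 60918 and 73786 in model replicates 1, 2 and 3. The groups did not overlap for this sum. The highest library of each group was the same for this sum and for Bmf, artemisinin replicate 2 and model replicate 1, and the order of the other 2 libraries of each group was not. None of the 11 markers was at 0 in any library. Their part in the fall of Bmf was not tested.

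Bid, whose protein is cut by caspase-8 and carries a death receptor signal to the mitochondria, stood at 14.3, 16.7 and 20 normalised CPM with artemisinin, against 7.92, 11.1 and 9.36 in the model. The groups did not overlap. The log2 fold change of 0.85 ± 0.22 (SE) missed the threshold (edgeR adjusted p = 0.0761), with a 95% interval of 0.33 to 1.36. Exons of Bid share 628 bases with exons of Bcl2l13 on the opposite strand in GENCODE M21. Counting with such an annotation may have given some reads of the pair to the wrong gene. In RefSeq the genes do not overlap, as Bcl2l13 ends at 120892842 and Bid starts at 120893119. The annotation used for counting is not given. Bcl2l13 had a log2 fold change of −0.39 ± 0.24 (SE).

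The 3 remaining BH3-only genes overlapped between the groups. Bcl2l11, which encodes BIM, an activator restrained by growth factor signals, stood at 33.8, 34.1 and 41.4 normalised CPM with artemisinin, against 42.3, 43.9 and 39.4 in the model. Bbc3, the PUMA gene and a direct target of p53, stood at 25.4, 18.8 and 20 with artemisinin, against 20.3, 19.8 and 17.9 in the model. Pmaip1, the NOXA gene, whose protein binds MCL1, stood at 32.1, 28.9 and 31.8 with artemisinin, against 18.9, 33.5 and 27.6 in the model. For these 3 genes the log2 fold changes were −0.20, 0.14 and 0.22, and their 95% intervals ran from −0.53 to 0.12, from −0.26 to 0.55 and from −0.29 to 0.72 (edgeR adjusted p = 0.398, 0.626 and 0.559). Model replicate 1 had the lowest Pmaip1 value, and without that library the log2 fold change of Pmaip1 was 0.02.

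**Figure D2:**
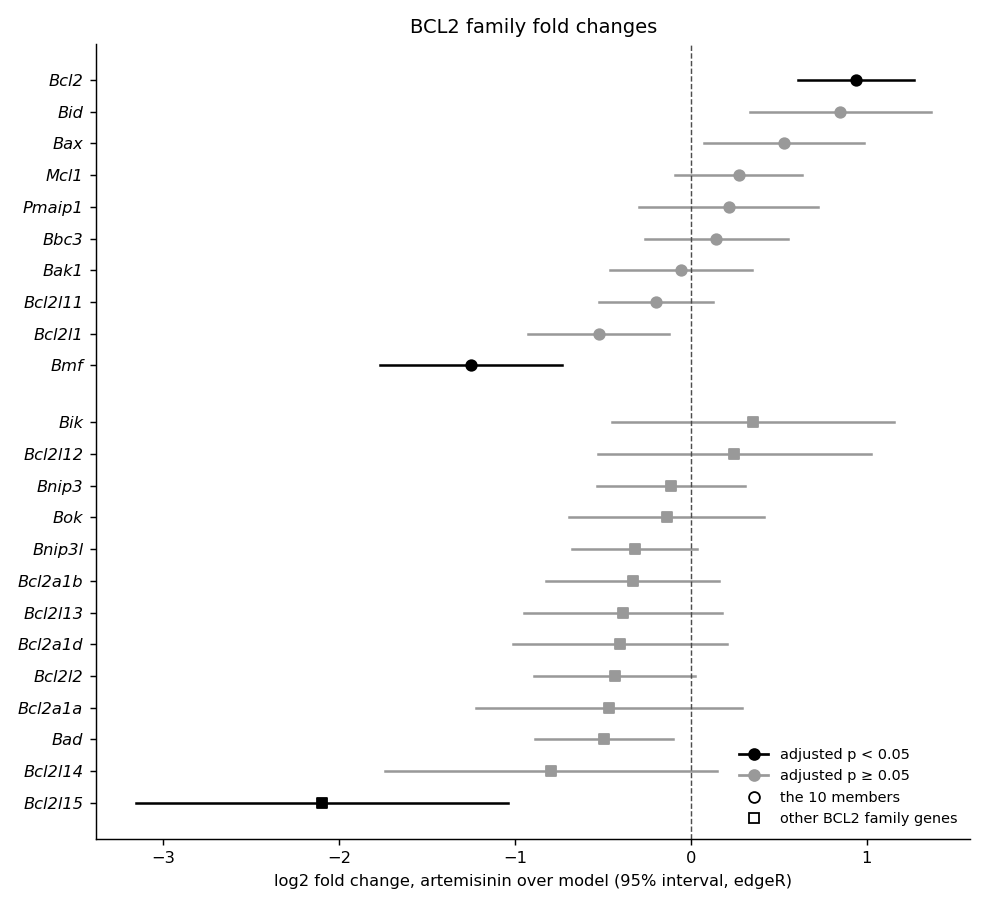
Log2 fold changes (horizontal axis, artemisinin over model) with 95% intervals from edgeR for the 10 members (circles) and 13 other BCL2 family genes that were tested (squares). Black symbols passed an adjusted p of 0.05, which were Bcl2 at 0.94, Bmf at −1.25 and Bcl2l15 at −2.10.

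Each class was also described by its make-up within a library, a share that is free of scaling between libraries. Of the summed FPKM of the 3 anti-apoptotic genes, Bcl2 held 9.03%, 8.78% and 8.95% in artemisinin replicates 1, 2 and 3, against 4.18%, 5.81% and 5.23% in model replicates 1, 2 and 3. Bcl2l1 held 20.9%, 20.7% and 17.7% with artemisinin, against 35.2%, 27.4% and 29.6% in the model. Mcl1 held most of the sum in all 6 libraries, on average 71.3 ± 1.78% with artemisinin and 64.2 ± 3.23% in the model (SD, n = 3 each). The groups lay apart for all 3 shares.

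Among the BH3-only genes the leading gene differed between the groups. Bmf held 19.8%, 26.9% and 19.2% of the summed FPKM of the class with artemisinin, against 53.7%, 37.3% and 40.5% in the model, where it led in every library. Pmaip1 led in every artemisinin library, with 31.7%, 28% and 30%, against 14.5%, 26.8% and 24.4% in the model. The share of Bid was 15.6%, 17.9% and 20.9% with artemisinin, against 6.75%, 9.79% and 9.15% in the model. Bcl2l11 kept a similar share in both groups, 13.3 ± 1.26% with artemisinin and 12.9 ± 0.529% in the model. These shares use the same reads as the fold changes and are no separate evidence.

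**Figure D3:**
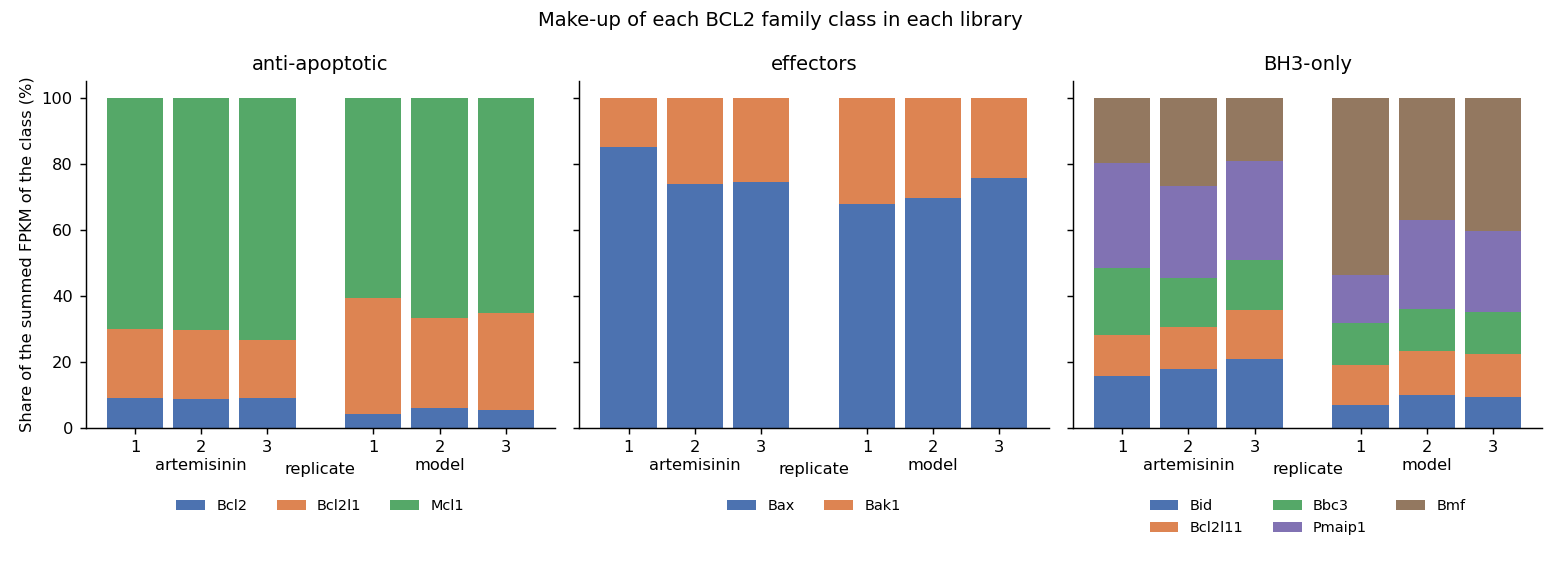
Share of the summed FPKM of each class (vertical axis, %) held by each gene in artemisinin replicates 1 to 3 and model replicates 1 to 3. Bmf held 19.2% to 26.9% of the BH3-only class with artemisinin and 37.3% to 53.7% in the model.

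Levels per length depend on the gene length behind the FPKM. The deposited FPKM imply a length of 8725 bases for Mcl1, longer than the 6236 bases that the gene spans in RefSeq and 2.55 times its 3418 exon bases in GENCODE M21, and 928 bases for Bax, 0.589 times its 1576 exon bases. On the deposited scale Bax and Mcl1 were the highest members, with 89.2 ± 25.5 and 70.6 ± 6.25 FPKM with artemisinin and 57.3 ± 3.64 and 54.4 ± 1.39 FPKM in the model (SD, n = 3 each), and their values overlapped within each group. With the exon bases in place of the implied lengths, Mcl1 stood at 180.1 with artemisinin and 138.9 in the model, and Bax at 52.5 with artemisinin and 33.7 in the model. The share of Bcl2 in the anti-apoptotic sum was then 3.36 ± 0.06% with artemisinin and 1.98 ± 0.29% in the model, and that of Bmf in the BH3-only sum was 22.9 ± 4.55% with artemisinin and 44.4 ± 8.30% in the model. Bmf also led every model library with these lengths, whereas the lead of Pmaip1 with artemisinin did not hold in every library, since Bbc3 reached 29.9%, above the highest Pmaip1 share of 29.4%. On the deposited scale Bcl2l11 was lowest with artemisinin, at 5.36 ± 0.747 FPKM, and Bbc3 came next at 6.80 ± 1.30 FPKM and overlapped with it. Bid was lowest in the model, at 3.80 ± 0.70 FPKM, where Bcl2 came next at 4.29 ± 0.585 FPKM and overlapped with it.

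The sequences before the start of the 2 called members are shown because these genes moved in opposite directions. RefSeq promoter sequences (GRCm38.p6) matched 9 of the 10 members, with 16 annotated starts, and the 250 bases before each start were searched on both strands for 6 short motifs whose letters were chosen after the sequences had been seen. These were the GC box (GGGCGG), the half-site of the cyclic AMP response element (TGACG), the CCAAT box (CCAAT), the TATA box (TATAAA), the forkhead core (TGTTTAC) and an E-box (CAGCTG). Capitals mark every match, and no matches of different motifs overlapped in these windows. The Bcl2 window is chr1:106714291-106714540 and the Bmf window, before the outermost of 3 starts, is chr2:118549687-118549936, both on the minus strand and printed 5′ to 3′.
Bcl2: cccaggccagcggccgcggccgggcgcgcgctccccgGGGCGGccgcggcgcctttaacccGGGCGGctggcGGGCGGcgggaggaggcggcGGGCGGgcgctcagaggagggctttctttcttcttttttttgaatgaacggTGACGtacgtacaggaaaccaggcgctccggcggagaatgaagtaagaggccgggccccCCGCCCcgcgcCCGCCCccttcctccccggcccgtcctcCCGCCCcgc
Bmf: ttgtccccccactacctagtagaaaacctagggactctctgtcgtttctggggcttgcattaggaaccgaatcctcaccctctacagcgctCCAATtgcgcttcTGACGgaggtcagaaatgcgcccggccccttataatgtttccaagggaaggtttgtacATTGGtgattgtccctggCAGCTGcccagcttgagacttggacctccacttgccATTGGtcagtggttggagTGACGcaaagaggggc

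The Bcl2 window was 74.8% G and C, against a median of 52.4% over 32851 promoters, and held 7 GC boxes and 1 TGACG match. The Bmf window was 54% G and C and held 3 CCAAT matches, 2 TGACG matches and 1 E-box. The GC box was found in 32.7% of all promoter windows, TGACG in 17.8%, CCAAT in 33.9% and the E-box CAGCTG in 13%. Of the 16 member windows, some of which overlap, 9 held a GC box, and they belonged to 6 genes. All 3 Bmf starts held the E-box, and TATAAA was found before none of the 16 starts, against 12.4% of all windows. The forkhead core was found before 1 Bcl2l11 start and 1 Bbc3 start, against 3.17% of all windows. A match is a match of letters only.

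Of 15 further genes of the family, 13 could be tested, and 1 was called, against 4.47% of all genes. Bcl2l15, a little-studied member, stood at 2.55, 1.23 and 1.15 normalised CPM with artemisinin, against 8.71, 4.63 and 7.69 in the model, a fall of 4.28-fold (log2 −2.10 ± 0.45, SE; edgeR adjusted p = 0.0487). The groups were apart, but the call was only just past the threshold and was kept in 3 of 15 alternative settings. The 13 genes had a median log2 fold change of −0.39, against 0.04 for all genes. Of the 13, 11 lay below 0, the near-identical Bcl2a1 copies among them, against 7138 of all 15242 genes. Bad, a BH3-only gene controlled by phosphorylation, and Bcl2l2, the BCL-W gene, had log2 fold changes of −0.49 ± 0.17 and −0.43 ± 0.20 (SE; edgeR adjusted p = 0.134 and 0.223), and Bok, another effector-like gene, had −0.14 ± 0.24. Bcl2l10 and Hrk had at most 2 counts in any library and were not tested.

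The Bcl2a1 genes encode A1, an anti-apoptotic protein of neutrophils and other leukocytes, and were set beside the neutrophil markers. Bcl2a1b, the most abundant copy, stood at 42, 50.7 and 56.9 normalised CPM with artemisinin, against 79.2, 48.1 and 61.1 in the model. The groups overlapped for Bcl2a1a, Bcl2a1b and Bcl2a1d, and their log2 fold changes were −0.47 ± 0.32, −0.33 ± 0.21 and −0.40 ± 0.26 (SE; edgeR adjusted p = 0.398, 0.361 and 0.367). All 10 neutrophil markers had positive log2 fold changes, with a median of 4.42, in the same libraries. The Bcl2a1 genes are near-identical copies, so the split of reads between them is uncertain.

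Downstream of the mitochondria, none of 22 genes of the apoptosome, the caspases and their inhibitors was called in edgeR, where 7 had an unadjusted p under 0.05, and DESeq2 called 3, against 24.7% and 15.1% of all genes. Among those with small p-values were Htra2, a protease released from mitochondria that blocks caspase inhibitors, and Cycs, the cytochrome c gene. Htra2 stood at 65, 35.6 and 46.9 normalised CPM with artemisinin, against 25.7, 23.9 and 28.2 in the model (log2 0.92 ± 0.23, SE; edgeR adjusted p = 0.0655). For Cycs the log2 fold change was 0.64 ± 0.20 (SE). The groups did not overlap for either gene, and the artemisinin values lay above the model for both. For Apaf1, the scaffold of the apoptosome, the log2 difference was 0.22 ± 0.15 (SE) and missed the threshold (edgeR adjusted p = 0.374).

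Upstream, none of the 11 death receptor genes, of the 16 p53 pathway genes or of the 13 FOXO and stress regulators was called in edgeR, where 1, 6 and 6 had an unadjusted p under 0.05 and DESeq2 called 0, 3 and 1, against the same 24.7% and 15.1% of all genes. Their median log2 fold changes were 0.03, −0.03 and 0.15, against 0.04 for all genes. Fas, the death receptor whose signal Bid relays, had a log2 fold change of 0.32 ± 0.16, and Ripk1, Tnf and Fadd, with the smallest p-values of that list, had −0.40 ± 0.17, 1.08 ± 0.48 and −0.38 ± 0.19 (SE). Trp53, which encodes p53 itself, had 0.11 ± 0.13, and its targets Cdkn1a and Mdm2 had −0.08 ± 0.19 and 0.23 ± 0.13 (SE). The smallest p-values among the p53 genes were those of Sesn2, Plk2 and Zmat3, all with negative log2 fold changes (−0.96, −0.64 and −0.82). Trp73, a p53 relative that is also active in ciliated airway cells, stood at 13.5, 7.40 and 14.5 normalised CPM with artemisinin, against 2.03, 6.08 and 3.28 in the model (log2 1.64 ± 0.46, SE; edgeR adjusted p = 0.0908). The 8 ciliated cell markers summed to 609.7 to 971.9 normalised CPM with artemisinin, against 297.2 to 541.4 in the model. Ddit3 and Atf3, stress response transcription factors, had log2 fold changes of 0.42 ± 0.16 and 0.65 ± 0.25 (SE; edgeR adjusted p = 0.156 and 0.178).

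Of 15 genes whose proteins bind BCL2 family proteins or control their turnover, 1 was called, against 4.47% of all genes. At an unadjusted p under 0.05 in edgeR, 5 lay lower and 0 higher. Of all 15242 genes, 1670 lay lower and 2088 higher, 24.7% in either direction. Itpr3, an inositol trisphosphate receptor gene whose calcium release BCL2 proteins restrain, stood at 68.5, 69.9 and 88.4 normalised CPM with artemisinin, against 138.6, 129.3 and 125.9 in the model. The groups lay well apart, a fall of 1.74-fold (log2 −0.80 ± 0.15, SE; edgeR adjusted p = 0.0326), and 7 of 15 alternative settings kept the call. It was lost without artemisinin replicate 1 (edgeR adjusted p = 0.0614) and without model replicate 1, 2 or 3 (0.151, 0.104 and 0.125). Tmbim6, which encodes BAX inhibitor 1, and Bag4 had log2 fold changes of −0.61 ± 0.19 and −0.52 ± 0.19 (SE; edgeR adjusted p = 0.114 and 0.156).

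The genes most like the 3 members with the smallest p-values were found by the Pearson correlation of log2 normalised CPM over the 6 libraries, among tested genes of at least 1 CPM on average. For Bcl2 they were Rbm38, Shank1 and Ms4a4c (r between 0.996 and 0.999). For Bmf they were Npc2, Gnptab and Hcn2 (r between 0.997 and 0.998), and for Bid they were Tspan3, B4galt5 and Ehd1 (r between 0.989 and 0.995). The 6 libraries fall into 2 groups and share the group difference, so these values are a description only.

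**Figure D4:**
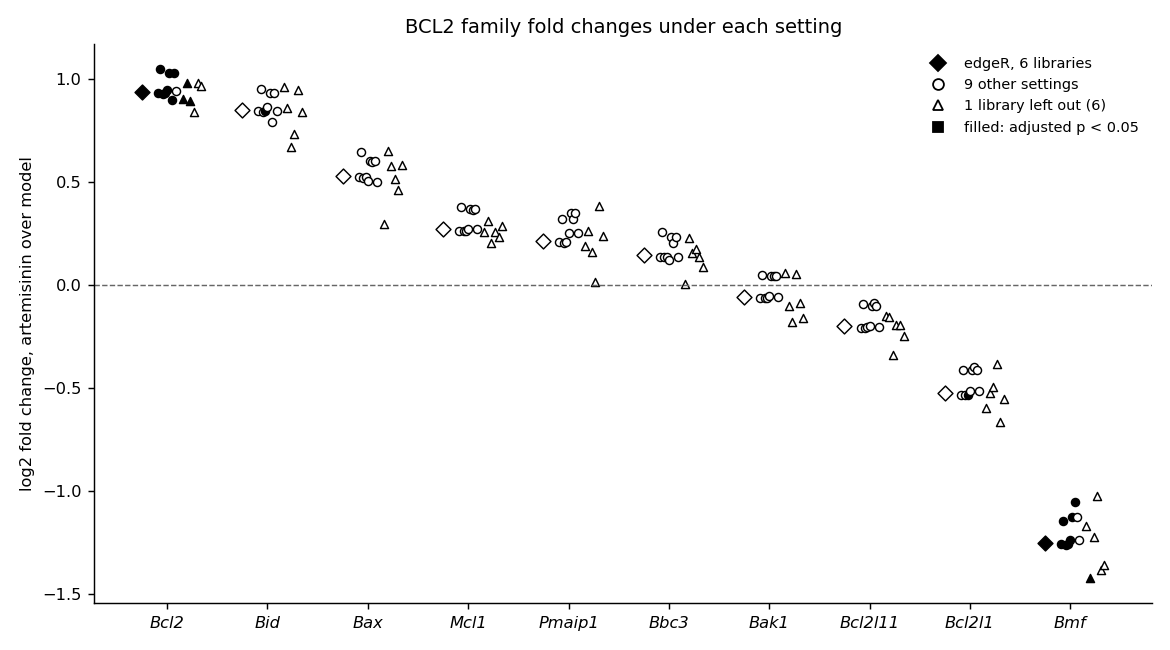
Log2 fold change (vertical axis, artemisinin over model) of the 10 members with edgeR on 6 libraries (diamonds), under 9 other settings (circles) and with 1 library left out (triangles). Filled symbols have an adjusted p under 0.05. Bcl2 stayed between 0.84 and 1.05 and Bmf between −1.42 and −1.03, while Bak1 lay on both sides of 0.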

How the data were processed

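The authors deposited raw counts of reads per gene and FPKM, which scale those counts by gene length and library total. Per the submitters' processing notes the build was GRCm38. The aligner, counter, annotation and strand setting are not given in the sources used here. FPKM times the library total over the count was 1 value per gene (largest relative gap 6.27e-09 over 12047 genes with at least 100 counts in each library), so the FPKM hold the same reads.

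Counts were tested with edgeR 4.0.16 (R 4.3.3), using filterByExpr, TMM factors, glmQLFit (robust) and glmQLFTest. P-values were Benjamini-Hochberg adjusted over 15242 genes at a threshold of 0.05. Standard errors are the fold change over the root of F. Normalised CPM use TMM-scaled totals. An exact permutation test of 3 against 3 cannot go below p = 0.1. In the smallest library 3 counts equal 0.117 CPM. Alternatives used DESeq2 1.42.0 and limma 3.58.1, limma also on log2(FPKM + 0.1) and log2(FPKM + 1). The code was tested on simulated data.

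The members and lists were chosen with earlier results of these data known. Named were all 10 members, called genes of each list or its 3 smallest p-values, and 12 fixed genes whatever their values; some genes that this rule names are not reported here. Bcl2l13 was named for its overlap with Bid, after its values were seen.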

Additional observations from a re-analysis of the deposited data

How the results depend on the processing

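Of the 10 members edgeR called 2, against 4 with DESeq2 (Bcl2, Bmf, Bid and Bcl2l1; 15.1% of all genes), 1 with limma on unfiltered log2(FPKM + 0.1) and 0 to 2 with 1 library left out. Over all genes 682 were called, against 2286 with DESeq2, 438 with limma on unfiltered FPKM and between 17 (without model replicate 1) and 1383 (without artemisinin replicate 2) with 1 library left out. The 1 further family gene called was 0 with library totals, no filter, limma-voom with group weights and limma on FPKM at either pseudocount or unfiltered, and 0 to 1 with 1 library left out. DESeq2 called 3 genes of the apoptosome and caspases, 3 p53 targets, 1 stress regulator and 2 partner genes, and limma on FPKM called 0 partner genes at either pseudocount or unfiltered. With 1 library left out, 0 to 1 apoptosome genes and 0 to 1 partner genes were called. The members other than Bak1 kept their sign in all 15 alternatives. The log2 fold change of Bak1 was 0.0506 with library totals, 0.0444 with limma on log2(FPKM + 0.1), filtered or not, 0.0427 on log2(FPKM + 1), and between −0.178 and 0.0591 with 1 library left out. Bok lay between −0.34 and 0.00301, and Cdkn1a between −0.227 and 0.0716, with 1 library left out, and Cdkn1a was 0.0183 with library totals. Under scaling by library totals the median over all genes was log2 0.15 in place of 0.04, and its calls split into 464 higher and 319 lower, against 331 and 351. The cause of these changes was not tested. Each member had at least 261 counts in every library.

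The replicate numbers gave no sign of pairing the mice, as deviations of same-numbered libraries from their group means correlated at −0.004, −0.10 and 0.03. With a block for replicate number, edgeR called 0 members, 128 of all genes, 0 further family genes and 0 partner genes, and the adjusted p was 0.0635 for Bcl2 and 0.0709 for Bmf at log2 fold changes of 0.94 and −1.24.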
